A study of Mus musculus with 10 samples.

Results

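Brown adipocytes of C57BL/6 mice treated for 1 day with the agent that the labels call ISO were compared with brown adipocytes given the solvent DMSO for 1 day. Each group had 2 RNA sequencing libraries, so 4 of the 10 libraries of the series carry the comparison, and the members are all genes of the count table, 24640 symbols, of which 15212 had enough counts to be tested. The labels give ISO by this abbreviation alone, with no dose. Side values come from 3 pairs of libraries of the same strain and cell type: DMSO for 3 days, BML-260 for 1 day and BML-260 for 3 days. The last pair served only the joint fit, the principal components and the checks of replicates. The labels state neither the age and sex of the animals nor whether the cells are a line. Nothing in the labels says that the libraries of a group came from separate cultures. Each p-value therefore covers only the spread between libraries within groups, and that spread may be technical. The fit estimated it over all 5 groups, with information shared across genes.

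Brown adipocytes burn fatty acids in their many mitochondria and release the energy as heat through Ucp1, a proton channel of the inner mitochondrial membrane. Noradrenaline from sympathetic nerves switches this on through beta-adrenergic receptors, cyclic AMP and protein kinase A, which starts lipolysis within minutes and raises transcription of Ucp1 and of Ppargc1a, a coactivator of mitochondrial genes. The same cells carry a circadian clock, in which Arntl and Clock activate the Per, Cry, Nr1d and Bhlhe genes and the products of those genes repress Arntl and Clock in turn.

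The libraries held 16955918 and 21185675 counts for ISO and 17107063 and 18429606 for DMSO at 1 day, within the range of all 10. Levels below are CPM, which are counts scaled to library size with TMM normalization. A gene is said to have risen, fallen or changed where its adjusted p from edgeR's quasi-likelihood test was under 0.05, and fold changes are on the log2 scale with the standard error (SE) of the fit. Adipocyte genes marked all 4 libraries: Fabp4, a fatty acid carrier, stood at 4383 and 4295 CPM in ISO and 6517 and 6268 in DMSO, and Adipoq, the hormone adiponectin, at 864 and 721 and 1379 and 1401. Of the brown markers, Cidea stood at 155 and 157 CPM in ISO and 128 and 130.3 in DMSO, while Dio2, the deiodinase that activates thyroid hormone, reached no more than 2 counts in each of the 4 libraries and was not tested. On the first principal component, which held 41.3% of the variance of the 10 libraries, ISO lay at 17.9 and 21.4 and DMSO at 1 day at -28.6 and -27.3. DMSO at 3 days lay at 5.05 and 4.94 and BML-260 at 3 days at 27.2 and 29. The ISO libraries thus carry the label 1 day but sat on the side of the 3-day libraries on this component. On the second (20.1%) ISO lay at -11.7 and -4.63, DMSO at 1 day at -6.27 and -8.17 and DMSO at 3 days at -20.4 and -22.5. There ISO sat nearer to DMSO at 1 day. The labels do not state the age of the cultures at harvest. Time in solvent and treatment cannot be told apart for genes that move with both, so levels in DMSO at 3 days, or differences from it, are given as well. The contrasts with DMSO at 3 days share libraries with the main one and are not independent of it.

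A large part of the transcriptome differed between ISO and DMSO at 1 day, mostly by modest amounts. Of the 15212 genes, 6339 changed (41.7%), with 3253 higher (21.4%) and 3086 lower (20.3%), and the median absolute log2 change of the changed genes was 0.35. Only 573 changed by at least 1 on the log2 scale, 207 higher (1.36%) and 366 lower (2.41%). Both ISO libraries lay above or below both DMSO libraries for 6323 of the changed genes. Genes that pass the test are mostly bound to separate in this way, so this count adds no support of its own. With upper-quartile scaling in place of TMM the split became 2588 higher and 3831 lower, and that scaling moved the median of all genes from -0.0036 to -0.055 on the log2 scale. Against DMSO at 3 days, 3026 genes differed (19.9%), 1620 higher (10.6%) and 1406 lower (9.24%), and by at least 1 on the log2 scale 26 higher (0.171%) and 75 lower (0.493%). With upper-quartile scaling that split was 1234 and 1817, and the count was 1469 without ISO replicate 2, 1693 without DMSO 3 days replicate 1 and 1711 without DMSO 3 days replicate 2. DMSO itself differed between 3 days and 1 day at 5313 genes (34.9%), with 2753 higher at 3 days (18.1%) and 2560 lower (16.8%), of which 131 (0.861%) and 118 (0.776%) by at least 1.

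**Figure D1:**
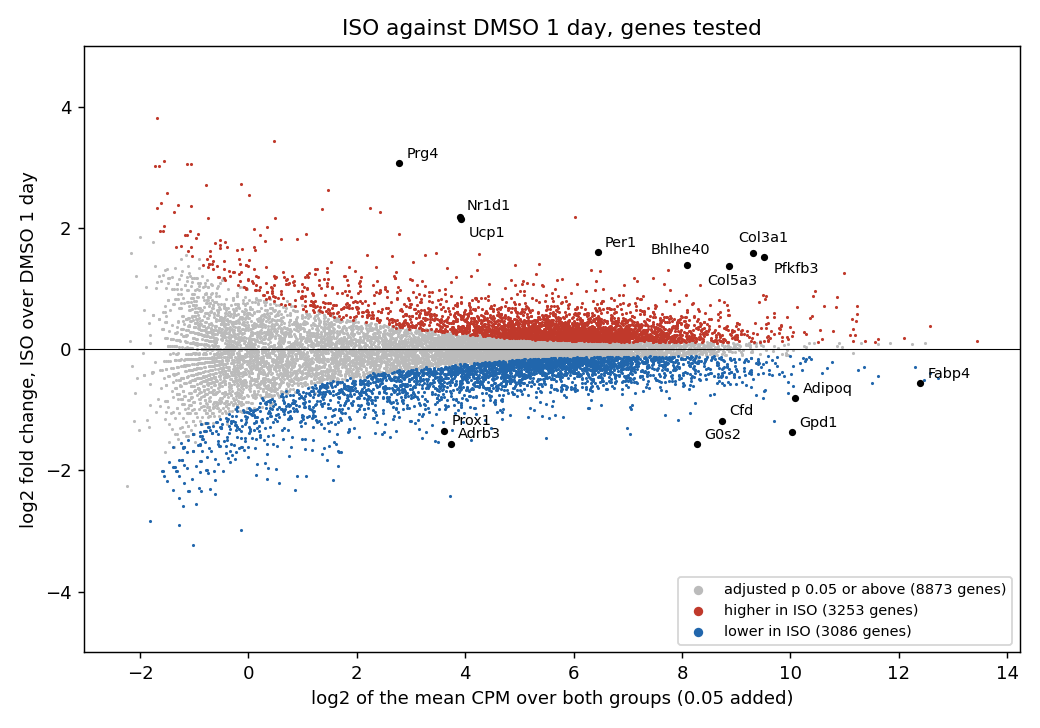
Log2 fold change of ISO over DMSO 1 day (vertical axis) against the log2 of the mean CPM of both groups (horizontal axis) for the genes tested, 1 point a gene. Red points mark the 3253 genes that rose and blue points the 3086 that fell. Prg4, Nr1d1 and Ucp1 stand above 2 on the vertical axis and G0s2 and Adrb3 below -1.5.

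Among genes of at least 10 CPM with a standard symbol the largest rise was that of Prg4, which encodes the secreted lubricating proteoglycan lubricin and lies at chr1:150449412-150466165 of GRCm38 (minus strand, protein coding, with exons that overlap Tpr). Its levels were 12.5 and 11.9 CPM in ISO, 1.16 and 1.72 in DMSO at 1 day and 1.98 and 2.63 in DMSO at 3 days. Both ISO libraries stood far above all other values, and the log2 fold change was 3.07 (SE 0.18, adjusted p = 7.1e-13), an 8.37-fold rise. The difference from DMSO at 3 days was 2.40 (adjusted p = 1.41e-10). Ucp1 (chr8:83290352-83298452, plus strand, protein coding) was next but for Nr1d1. Ucp1 stood at 26.1 and 23.5 CPM in ISO and 6.05 and 5.1 in DMSO at 1 day, with 12.3 and 13.1 in DMSO at 3 days. Its rise was 4.44-fold (log2 2.15, SE 0.12, adjusted p = 1.95e-13), and it remained 0.96 log2 units above the 3-day solvent (adjusted p = 1.75e-07).

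Several of the other large rises were genes of the extracellular matrix or its growth factors. Itga11, a subunit of a collagen-binding integrin, rose by 1.55 (SE 0.14), from 4.19 and 5.48 CPM to 14.2 and 14.3. Adamts2, the protease that trims procollagen, stood at 12.9 and 11.1 CPM in ISO against 4.54 and 4.24. Ptn, the growth factor pleiotrophin, stood at 64.1 and 55.2 against 21.1 and 23.7, and Htra1, a secreted serine protease, at 46 and 42.1 against 16.2 and 17.1. In DMSO at 3 days Itga11 stood at 13.4 and 16.1 CPM and Adamts2 at 9.97 and 12.1, and neither difference from ISO passed the test (adjusted p = 0.811 and 0.592). Ptn and Htra1 were higher in ISO than there, by 0.37 and 0.20. Kalrn, a guanine nucleotide exchange factor, differed from both solvent groups: 17.6 and 18.7 CPM in ISO, 7.45 and 7.03 in DMSO at 1 day and 9.71 and 9.28 at 3 days, a rise of 1.33 (SE 0.11) and a difference of 0.94 from the later solvent (adjusted p = 2.77e-07).

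The strongest falls split by how they stood against the later solvent libraries. Adrb3, the beta-adrenergic receptor most typical of adipocytes (chr8:27225776-27250616, minus strand, protein coding), dropped from 19 and 20.6 CPM to 7.24 and 6.3. In DMSO at 3 days it stood at 21.3 and 23.5, so that both ISO libraries lay below all 4 solvent libraries, with -1.56 against 1 day (SE 0.12, adjusted p = 3.73e-11) and -1.73 against 3 days (adjusted p = 7.32e-11). Prox1, a homeobox transcription factor of lymphatic and liver development (chr1:190118035-190170714), behaved alike, with 7.18 and 6.59 CPM in ISO, 17.2 and 17.6 in DMSO at 1 day and 17 and 17.2 at 3 days. Its change was -1.34 (SE 0.11), and the 2 solvent groups differed by -0.027 (adjusted p = 0.862). Nabp1, a single-stranded DNA binding protein, stood at 75.5 and 71 CPM against 183 and 177 and, at 3 days, 129 and 119.8. Trmt12, a tRNA modification enzyme, fell by 1.47 and Fndc5, the precursor of irisin, fell by 1.26, and both were also lower than in DMSO at 3 days (-0.69 and -0.50).

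A second set reached about the level of the 3-day solvent. G0s2, the protein inhibitor of the triglyceride lipase Pnpla2, fell most of all by the naming rule, from 444 and 482 CPM to 166 and 146 (log2 -1.57, SE 0.081, adjusted p = 4.72e-14). Its level in DMSO at 3 days was 169 and 157, and the difference from ISO was -0.064 (adjusted p = 0.642). Gpd1, the cytosolic glycerol phosphate dehydrogenase that supplies the backbone of triglycerides, stood at 612 and 545 CPM in ISO, 1487 and 1509.7 in DMSO at 1 day and 594 and 590.2 at 3 days. Itih4, a secreted acute phase protein, showed 24.6 and 23, 67 and 64.4 and 27.7 and 25.5 CPM in the same order. Id1, a dominant negative partner of helix-loop-helix factors and a target of BMP signals, showed 12.8 and 12.8, 31.2 and 32 and 13 and 13.3. Osgin1, Adamts15 and Hdhd3 did likewise: their changes against DMSO at 1 day were -1.54, -1.50 and -1.37, and their differences from DMSO at 3 days, -0.033, -0.25 and -0.12, did not pass the test (adjusted p = 0.899, 0.163 and 0.613). The remaining genes under the rule were Fam217b, which fell by 1.21 and was also lower than in DMSO at 3 days (-0.39), and 1 cDNA row without a gene symbol.

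**Figure D2:**
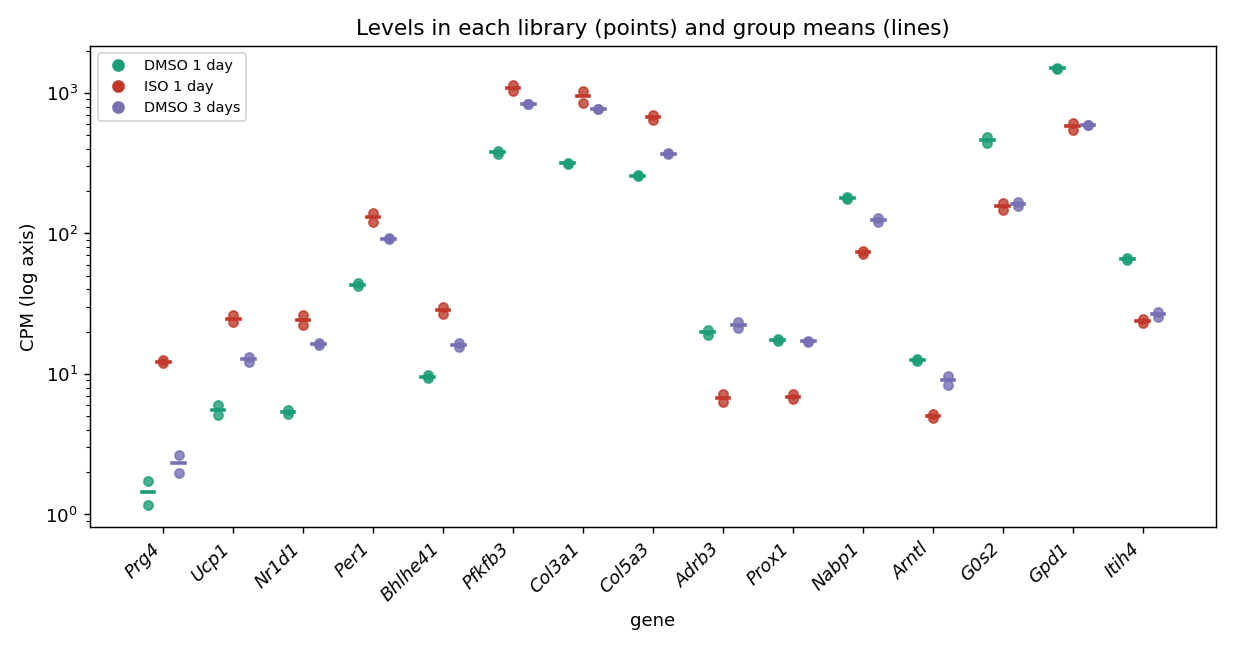
CPM on a log axis (vertical) of 15 of the named genes (horizontal) in each library of DMSO 1 day, ISO 1 day and DMSO 3 days. Points are libraries and lines group means. Prg4 and Ucp1 are highest in ISO, Adrb3, Prox1, Nabp1 and Arntl lowest in ISO, and G0s2, Gpd1 and Itih4 are about equal in ISO and DMSO 3 days.

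Most genes of the thermogenic programme that changed went the other way from Ucp1. Of 20 tested members of that list of 23, 2 rose (10%) and 11 fell (55%), against 21.4% and 20.3% of all genes, and the median log2 change was -0.24 against -0.0036 over all genes. The other riser was Cidea, which sits on lipid droplets, by 0.27 (SE 0.056, adjusted p = 0.000291), and Cidea was lower than in DMSO at 3 days (196 and 205 CPM, -0.36). Ppargc1a fell from 49.7 and 51 CPM to 36.9 and 34.4 (log2 -0.50, SE 0.063) and was at 48.7 and 48.2 in DMSO at 3 days. Esrra, its nuclear receptor partner at mitochondrial genes, fell by 0.66. Letmd1, a mitochondrial protein, fell by 0.52, and Pank1, which makes coenzyme A, fell by 0.73. Esrra stood at 70.5 and 71.9 CPM in DMSO at 3 days and 76.3 and 73.5 in ISO (adjusted p of the difference 0.376). Prdm16, a determinant of brown fat identity, fell by 0.49 and Ebf2, another, fell by 0.42. Letmd1, Pank1 and Ebf2 were lower than in DMSO at 3 days too (-0.15, -0.47 and -0.35), while Prdm16 did not pass there (-0.23, adjusted p = 0.106). Elovl3, a fatty acid elongase induced by cold, showed 11.7 and 10.8 CPM against 11.8 and 9.61 and did not pass the test (adjusted p = 0.683). Against DMSO at 3 days 2 of the 20 were higher and 9 lower (backgrounds 10.6% and 9.24%).

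Of the receptors upstream, Adrb1 fell as Adrb3 did. Adrb1 fell by 0.79 (SE 0.097, 13 and 13.9 CPM in ISO and 22.8 and 23.8 in DMSO), and at 3 days of DMSO it stood at 11.5 and 12. Against DMSO at 3 days Adrb1 did not pass the test (adjusted p = 0.192), whereas Adrb3 passed against both solvent groups. Of 36 tested genes of the beta-adrenergic and cyclic AMP machinery 9 rose (25%) and 13 fell (36.1%), against 21.4% and 20.3% of all genes. The share of risers was thus near that of all genes. Set against DMSO at 3 days, 4 were higher (11.1%) and 7 lower (19.4%), where 10.6% and 9.24% of all genes were. Akap1, which anchors protein kinase A at mitochondria, fell by 0.55, and Pde4d, a phosphodiesterase that degrades cyclic AMP, rose by 0.71. Their differences from the later solvent were -0.19 and 0.26. Of 24 tested early targets of cyclic AMP and CREB 8 rose (33.3%) and 9 fell (37.5%), against the same 21.4% and 20.3%. In the contrast with DMSO at 3 days 4 were higher (16.7%) and 6 lower (25%), against 10.6% and 9.24% of all genes. Per1 rose, as did Sik1, a kinase that restrains CREB coactivators, from 34.1 and 33.7 CPM to 70.4 and 64.5 (58 and 62.2 at 3 days), whereas Dusp1, a MAP kinase phosphatase, fell from 64 and 63.4 to 34.2 and 32.1 and was also lower than in DMSO at 3 days (-0.63). Dusp22, a phosphatase of the same family, showed 76.6 and 72.5 CPM against 75.9 and 75.7 (log2 -0.026, SE 0.058, adjusted p = 0.75).

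Genes of the circadian clock changed in opposite directions around the loop. Of 18 tested clock genes 13 rose (72.2%) and 2 fell (11.1%), against 21.4% and 20.3% of all genes, with a median of 0.49. Between the solvent groups 12 were higher at 3 days (66.7%) and 2 lower (11.1%), against 18.1% and 16.8% of all genes. Against DMSO at 3 days 7 were higher in ISO (38.9%) and 1 lower (5.56%), where 10.6% and 9.24% of all genes were. Nr1d1, the nuclear receptor REV-ERB alpha that represses Arntl, rose most: 22.3 and 26.3 CPM in ISO, 5.18 and 5.58 in DMSO at 1 day and 16.1 and 16.7 at 3 days, a log2 change of 2.18 (SE 0.12, adjusted p = 3.37e-13). Per1, a repressor of the loop, stood at 121 and 141 CPM against 44.4 and 42.1 and, at 3 days, 92.4 and 91.4, a rise of 1.60 (SE 0.064). Bhlhe40 and Bhlhe41, repressors that compete for the same DNA element as Arntl and Clock, rose by 1.38 (SE 0.049) and 1.57 (SE 0.10). Arntl, the activator, fell: 5.2 and 4.82 CPM in ISO, 12.7 and 12.3 in DMSO at 1 day and 9.66 and 8.41 at 3 days, a change of -1.32 (SE 0.13, adjusted p = 6.36e-09). Its partner Clock, named because it is the only other member that fell, showed -0.22 (SE 0.056), and only 1 clock gene fell without ISO replicate 1. Set against DMSO at 3 days, Nr1d1 differed by 0.58, Per1 by 0.51, Bhlhe40 by 0.41, Bhlhe41 by 0.82 and Arntl by -0.85 (adjusted p = 0.000168, 4.66e-07, 5.25e-07, 3.75e-07 and 5.53e-05). Clock showed -0.038 there (adjusted p = 0.689). Between the solvent groups, which share libraries with both contrasts, Nr1d1, Per1, Bhlhe40, Bhlhe41 and Arntl differed by 1.60, 1.09, 0.97, 0.75 and -0.47. The labels give no time of day for any harvest, and its part in these values was not tested.

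Arntl and Clock, and the Bhlhe repressors, bind the E-box CACGTG. It is shown in capitals in the promoters of Per1 and Bhlhe41, both among the 15 highest genes. The stretches come from the 250 bases before the RefSeq start (GRCm38.p6), without bases that lie in an annotated exon, and are given 5′ to 3′ on the gene's strand. The Per1 stretch is chr11:69098699-69098947 (plus strand) and the Bhlhe41 stretch chr6:145865559-145865670 (minus strand).
Per1: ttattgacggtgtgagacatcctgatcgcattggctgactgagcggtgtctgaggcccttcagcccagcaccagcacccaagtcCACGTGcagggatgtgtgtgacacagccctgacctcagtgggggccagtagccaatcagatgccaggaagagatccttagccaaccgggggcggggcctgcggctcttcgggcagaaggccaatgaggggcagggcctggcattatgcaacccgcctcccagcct
Bhlhe41: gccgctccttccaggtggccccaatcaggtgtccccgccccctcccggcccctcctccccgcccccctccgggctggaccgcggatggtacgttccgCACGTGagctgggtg
CACGTG was found in the 250 bases of 1978 of 32851 promoter windows (6.02%), and in 6 of the 21 windows of clock genes, which belong to Per1, Bhlhe41, Cry1, Ciart and Tef (5 of the 16 members with a window). Both strands were searched, and CACGTG reads alike on both. A match describes the letters only.

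Targets of hypoxia-inducible factor rose as a group. Of 20 tested members 16 rose (80%) and 3 fell (15%), against 21.4% and 20.3% of all genes, with a median of 0.68. Pfkfb3, the enzyme that makes the activator of phosphofructokinase, stood at 1038 and 1135 CPM in ISO, 388 and 369 in DMSO at 1 day and 841 and 829 at 3 days, a rise of 1.52 (SE 0.047, adjusted p = 2.17e-18). Car9, a carbonic anhydrase of the cell surface, rose by 1.58 (SE 0.13), from 5.18 and 5.8 CPM to 17.3 and 15.8. Ndrg1 rose by 1.18 (SE 0.048), P4ha1, a subunit of the enzyme that hydroxylates collagen prolines, by 0.78 (SE 0.046), and Kdm3a, a histone demethylase, by 0.79 (SE 0.047). Between the solvent groups 17 of the 20 were higher at 3 days (85%) and 2 lower (10%), against 18.1% and 16.8% of all genes. Set against DMSO at 3 days, 9 of the 20 were higher in ISO (45%) and 2 lower (10%), where 10.6% and 9.24% of all genes were. There Pfkfb3 differed by 0.38, Car9 by 0.57, Ndrg1 by 0.34 and P4ha1 by 0.31, while Kdm3a showed -0.11 (adjusted p = 0.0769). The factor's core letters, ACGTG on either strand (every CACGTG holds it), lie in 16.6% of all promoter windows and in 15 of 26 windows of the list (57.7%). The same letters lie in 11 of 21 windows of clock genes (52.4%) and 7 of 17 of the endoplasmic reticulum chaperones (41.2%), so they are not particular to this list. They occur inside CACGTG in the shown stretch of a Pfkfb3 promoter (chr2:11502102-11502340, minus strand), with the letters in capitals.
Pfkfb3: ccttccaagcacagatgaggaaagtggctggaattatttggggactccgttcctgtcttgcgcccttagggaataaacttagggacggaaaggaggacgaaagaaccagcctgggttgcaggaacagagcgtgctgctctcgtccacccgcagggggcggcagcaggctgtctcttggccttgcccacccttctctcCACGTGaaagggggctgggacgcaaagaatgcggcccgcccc
Of 24 tested genes of glucose uptake and glycolysis 9 rose (37.5%) and 3 fell (12.5%), against 21.4% and 20.3% of all genes, and with upper-quartile scaling 5 fell. Against the later solvent 12 were higher (50%) and 3 lower (12.5%). Slc2a1, the basal glucose transporter, rose by 0.76 (SE 0.052), Pdk4, the kinase that shuts pyruvate dehydrogenase, by 0.75 (SE 0.068), and Ldhb fell by 0.81 (SE 0.048). Pdk4 stood at 374 and 357 CPM in ISO, below the 478 and 547 of DMSO at 3 days (-0.49). Ldhb was lower than there as well (-0.40), and Slc2a1 did not pass (0.11, adjusted p = 0.143).

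Chaperones of the endoplasmic reticulum rose with no member lower: 17 of 19 tested (89.5%, against 21.4% of all genes), with a median of 0.31. Between the solvent groups 13 of 19 were higher at 3 days (68.4%, against 18.1% of all genes) and none lower. Against DMSO at 3 days 10 of 19 were higher in ISO (52.6%) and none lower, where 10.6% and 9.24% of all genes were. Hspa5, the chaperone BiP, stood at 2249.6 and 2566 CPM in ISO, 1388 and 1267 in DMSO at 1 day and 1774 and 1775 at 3 days, a change of 0.86 (SE 0.053, adjusted p = 9.81e-13). P4hb, a disulfide isomerase that is also a subunit of the collagen hydroxylase, rose by 0.54 (SE 0.042), Hyou1 by 0.59 (SE 0.046) and Calr, calreticulin, by 0.43 (SE 0.041). P4hb, Hyou1 and Calr were also higher than in DMSO at 3 days, by 0.23, 0.28 and 0.21. Many promoters of this family carry the ER stress element, CCAAT and CCACG with 9 bases between them (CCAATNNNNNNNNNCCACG, searched on both strands). It was found in 37 of the 32851 windows of all genes (0.113%) and in 7 of 17 windows of this list. Capitals mark it, read on the opposite strand in Calr and once on each strand in Hsp90b1, in these stretches of Calr (chr8:84846935-84847181, minus strand), Hsp90b1 (chr10:86705510-86705694, minus strand) and Canx (chr11:50325674-50325923, minus strand). Hsp90b1 and Canx were chosen for their promoters after their values were seen, and rose by 0.39 and 0.29.
Calr: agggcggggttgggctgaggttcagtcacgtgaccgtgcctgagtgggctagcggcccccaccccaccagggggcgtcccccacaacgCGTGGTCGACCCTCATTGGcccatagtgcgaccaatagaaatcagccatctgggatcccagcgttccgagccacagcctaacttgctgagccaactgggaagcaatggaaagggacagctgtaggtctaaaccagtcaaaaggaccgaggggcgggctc
Hsp90b1: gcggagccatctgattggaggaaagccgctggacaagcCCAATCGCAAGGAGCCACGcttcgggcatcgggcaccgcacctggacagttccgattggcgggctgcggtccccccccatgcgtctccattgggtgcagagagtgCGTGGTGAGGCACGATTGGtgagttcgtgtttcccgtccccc
Canx: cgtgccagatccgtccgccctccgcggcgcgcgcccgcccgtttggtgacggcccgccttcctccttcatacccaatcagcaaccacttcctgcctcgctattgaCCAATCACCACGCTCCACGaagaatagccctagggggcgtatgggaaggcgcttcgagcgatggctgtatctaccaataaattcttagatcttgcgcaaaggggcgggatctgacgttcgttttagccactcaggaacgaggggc
Of 25 tested genes of the integrated stress response 13 rose (52%) and 8 fell (32%), against 21.4% and 20.3% of all genes. Fewer fell without DMSO 1 day replicate 1 or without ISO replicate 2. Against the later solvent 13 of the 25 were higher (52%) and 1 lower (4%), where 10.6% and 9.24% of all genes were. Ddit3, the transcription factor CHOP, rose by 0.80 (SE 0.044), from 299.7 and 298 CPM to 507 and 536, with 406 and 393 at 3 days. Nupr1, a stress-induced chromatin protein, rose by 0.83, Aldh1l2, a mitochondrial folate enzyme, by 0.73, and Ppp1r15a, which reverses the phosphorylation of the initiation factor, by 0.70. Nupr1, Aldh1l2 and Ppp1r15a exceeded the later solvent by 0.57, 0.33 and 0.27. Of 16 heat shock genes 3 rose (18.8%) and 4 fell (25%), shares near the background of 21.4% and 20.3%, and without ISO replicate 2 these were 1 and 2, and 2 fell without DMSO 1 day replicate 1. Hsp90ab1 rose by 0.28 and Hspe1 fell by 0.27, while the falls of Hspd1 (-0.21) and Hspa1b (-0.34) lost the call when 1 library was left out: Hspd1 was at -0.087 (adjusted p = 0.236) without DMSO 1 day replicate 1, and Hspa1b at -0.089 (adjusted p = 0.602) without DMSO 1 day replicate 2 and at -0.25 (adjusted p = 0.174) without ISO replicate 2.

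Collagens and their matrix partners rose together. Of 20 tested collagen genes 16 rose (80%) and none fell, with a median of 0.65, against 21.4% and 20.3% of all genes. Of 36 matrix glycoproteins and cross-linking enzymes 28 rose (77.8%) and 1 fell (2.78%), with a median of 0.41. Col3a1, a fibrillar chain, stood at 1040.2 and 853 CPM in ISO, 313 and 318 in DMSO at 1 day and 768 and 775 at 3 days, a rise of 1.58 (SE 0.076, adjusted p = 1.24e-14). Col1a1, the main chain of connective tissue, rose by 1.25 (SE 0.059), from 1129 and 1278 CPM to 3053 and 2694. Col5a3 stood at 698 and 642 CPM against 256 and 259.9, a rise of 1.38 (SE 0.046), and with 367 and 371 in DMSO at 3 days it also exceeded the later solvent, by 0.86 (adjusted p = 9.97e-13). Col5a2 rose by 0.90 (SE 0.048). Col1a1 and Col5a2 were also higher than in DMSO at 3 days, by 0.26 and 0.15. Among the glycoproteins Postn, periostin, stood at 287 and 268 CPM against 135 and 128, Thbs2, a thrombospondin, at 474 and 399 against 202 and 217, and Fn1, fibronectin, at 1987 and 1899 against 1157 and 1221. In DMSO at 3 days these 3 stood at 267 and 283, 399 and 452 and 2029 and 2115, with differences from ISO of 0.013, 0.036 and -0.093 that did not pass the test (adjusted p = 0.904, 0.729 and 0.157). Against DMSO at 3 days 10 of 20 collagens were higher (50%) and 3 lower (15%), where 10.6% and 9.24% of all genes were. Of the 36 partners 4 were higher (11.1%) and 7 lower (19.4%) there, so the share of partners that were higher was near that of all genes. Between the solvent groups 18 of 20 collagens (90%) and 29 of 36 partners (80.6%) were higher at 3 days, against 18.1% of all genes. None was lower.

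Markers of preadipocytes and fibroblasts moved with these genes. Of 13 tested, 8 rose (61.5%) and 2 fell (15.4%, fewer without DMSO 1 day replicate 2), against 21.4% and 20.3% of all genes. The median was 0.47 and the changes ranged from -1.17 to 1.55. Their summed level was 587.5 and 550.9 CPM in ISO, 384.4 and 405.4 in DMSO at 1 day and 602.9 and 655.5 at 3 days. Pdgfra, the receptor that marks preadipocytes, stood at 51.1 and 46 CPM against 26.2 and 27.8 and, at 3 days, 53.9 and 52.8. Ly6a, which encodes the progenitor antigen Sca, stood at 8.13 and 6.49 CPM against 2.62 and 3.01 and, at 3 days, 2.34 and 2.78, so it differed from both solvent groups (1.36 and 1.50). Dpt, a matrix protein of fibroblasts, rose by 1.55 (SE 0.20) and differed from the later solvent by 0.53. The list as a whole did not exceed the later solvent: 2 of 13 were higher (15.4%) and 2 lower (15.4%), with a median of -0.14. Of all genes 10.6% were higher and 9.24% lower there. Between the solvent groups 8 of 13 were higher at 3 days (61.5%) and 2 lower (15.4%), against 18.1% and 16.8% of all genes. In these bulk libraries more cells of a type and more RNA per cell cannot be told apart, and the part of such cells in the matrix result was not tested. Smooth muscle and pericyte markers summed to 530.5 and 486.6 CPM in ISO, 480.1 and 484.8 in DMSO at 1 day and 542.2 and 559.1 at 3 days. Of 11 tested, 5 rose (45.5%) and 4 fell (36.4%, fewer without ISO replicate 2), against 21.4% and 20.3% of all genes. Against DMSO at 3 days 1 was higher (9.09%) and 5 lower (45.5%), with a median of -0.23, where 10.6% and 9.24% of all genes were. Endothelial markers summed to 8.374 and 7.736 CPM against 11.64 and 11.28 and, at 3 days, 9.103 and 8.405, with Emcn at 0 in all 4 libraries. Macrophage and leukocyte markers summed to 10.71 and 9.455 against 7.161 and 6.98 and, at 3 days, 7.018 and 6.807, and of the 2 tested Cd68 rose (6.94 and 6.21 CPM against 3.55 and 2.74) and Cd14 did not pass the test (3.35 and 2.67 against 2.85 and 3.81, adjusted p = 0.586).

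Genes of the mature adipocyte fell. Of 22 tested, 17 fell (77.3%) and 3 rose (13.6%), against 20.3% and 21.4% of all genes, with a median of -0.57. Between the solvent groups 15 were lower at 3 days (68.2%) and 3 higher (13.6%), against 16.8% and 18.1% of all genes. Against DMSO at 3 days 10 were lower in ISO (45.5%) and 6 higher (27.3%), where 9.24% and 10.6% of all genes were. Cfd, the secreted protease adipsin, stood at 273 and 253 CPM in ISO, 566 and 622 in DMSO at 1 day and 352 and 377 at 3 days, a change of -1.18 (SE 0.055, adjusted p = 7.16e-15). Cebpa, a transcription factor that maintains the adipocyte state, fell by 1.05 (SE 0.063) from 355 and 406 CPM to 187 and 180.0, with 203 and 218 at 3 days. Cd36, a fatty acid transporter, fell by 0.73 (SE 0.045), Adipoq fell by 0.81 (SE 0.06) and Fabp4 fell by 0.56 (SE 0.041). Against the later solvent Cd36 and Adipoq were lower (-0.27 and -0.24), and Fabp4 did not pass (-0.084, adjusted p = 0.156). Pparg, the master regulator of adipogenesis, showed 440.1 and 432 CPM against 419.8 and 406 and did not pass the test (log2 0.079, adjusted p = 0.136), and with 534 and 534 in DMSO at 3 days it was lower in ISO than there (-0.29). Lep, leptin, stood at 1.61 and 1.43 CPM against 6.29 and 3.6 and, at 3 days, 5.8 and 6.76, and fell by 1.69 (SE 0.26). Of 24 adipogenic transcription factors 4 rose (16.7%, or 2 genes without DMSO 1 day replicate 1) and 7 fell (29.2%), near the 21.4% and 20.3% of all genes. Id2, a relative of Id1 from the TGF-beta list, stood at 23.9 and 25.5 CPM against 46.5 and 51 (25 and 22 at 3 days). Of 16 genes of lipolysis and lipid droplets 4 rose (25%) and 10 fell (62.5%), whereas against DMSO at 3 days 6 were higher (37.5%) and 4 lower (25%). Aqp7, the glycerol channel, fell by 0.75, Plin4, a droplet coat, fell by 0.69, and Plin2, another coat, rose by 0.43. Their differences from the later solvent were -0.60, -0.33 and 0.12. Lipogenesis was divided, with 6 of 24 higher (25%) and 10 lower (41.7%), and against DMSO at 3 days the counts were 9 higher (37.5%) and 2 lower (8.33%). Thrsp, a lipogenic regulator, fell by 1.08 together with Gpd1, whereas Aacs, which activates acetoacetate, rose by 0.45 and Lpin1, a phosphatidic acid phosphatase, by 0.35. Aacs and Lpin1 exceeded the later solvent by 0.38 and 0.27, and Thrsp did not pass there (-0.072, adjusted p = 0.403).

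Mitochondrial energy genes fell almost without exception and by modest amounts. Of 53 nuclear subunits of the respiratory chain 48 fell (90.6%) and none rose, with a median of -0.41, against 20.3% and 21.4% of all genes. Of 22 fatty acid oxidation genes 21 fell (95.5%) and none rose, with a median of -0.42. Of 21 genes of the citric acid cycle 20 fell (95.2%) and none rose, with a median of -0.35. Ndufa4 stood at 290.3 and 284 CPM in ISO, 488 and 476 in DMSO at 1 day and 308 and 306 at 3 days, a change of -0.75 (SE 0.048, adjusted p = 2.99e-12). Cox6c, a subunit of cytochrome oxidase, fell by 0.60 (SE 0.045), Ndufs1, of complex I, fell by 0.61 (SE 0.047), and Cox7b fell by 0.59 (SE 0.046). Hadha, the trifunctional enzyme of beta-oxidation, stood at 851 and 829 CPM against 1325 and 1244 and, at 3 days, 898 and 861, and Acaa2 and Acat1, thiolases, changed by -0.57 and -0.56. Of the citric acid cycle Fh1, fumarase, fell by 0.52, from 342 and 331 CPM to 237 and 232 (256 and 251 at 3 days). The 3 mitochondrially encoded genes tested also fell: mt-Nd3 stood at 158 and 143 CPM against 336 and 341, mt-Co3 at 5839 and 5483 against 8013 and 7788, and mt-Nd5 at 11.1 and 8.4 against 19.1 and 19.6. Cox7a1 and Cox8b, the subunits typical of brown fat and muscle, did not pass the test against DMSO at 1 day (-0.084 and -0.11, adjusted p = 0.162 and 0.505), though Cox7a1 passed with upper-quartile scaling. Against DMSO at 3 days the lowest value among the respiratory subunits, -0.58, was also the lowest among the brown markers. The only respiratory subunits among those markers are Cox7a1 and Cox8b. Few members of the 3 nuclear lists differed from DMSO at 3 days: 4 of 53 respiratory subunits were higher and 5 lower, 2 of 22 oxidation genes higher and 4 lower, and 2 of 21 cycle genes higher and none lower. Over all genes 10.6% were higher and 9.24% lower, against 7.55% and 9.43% of the respiratory subunits, 9.09% and 18.2% of the oxidation genes and 9.52% of the cycle genes that were higher. Of the 3 mitochondrially encoded genes 2 were lower there too, mt-Nd3 by -0.64 and mt-Nd5 by -0.60, and mt-Co3 did not pass (-0.12, adjusted p = 0.114). Cox6c and Acat1 were lower (-0.15 and -0.16), and Ndufs1, Cox7b and Acaa2 did not pass (-0.10, -0.09 and -0.11, adjusted p = 0.134, 0.179 and 0.0965). DMSO at 3 days itself lay below DMSO at 1 day for 48, 20 and 20 members of these lists, with medians of -0.41, -0.37 and -0.38.

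**Figure D3:**
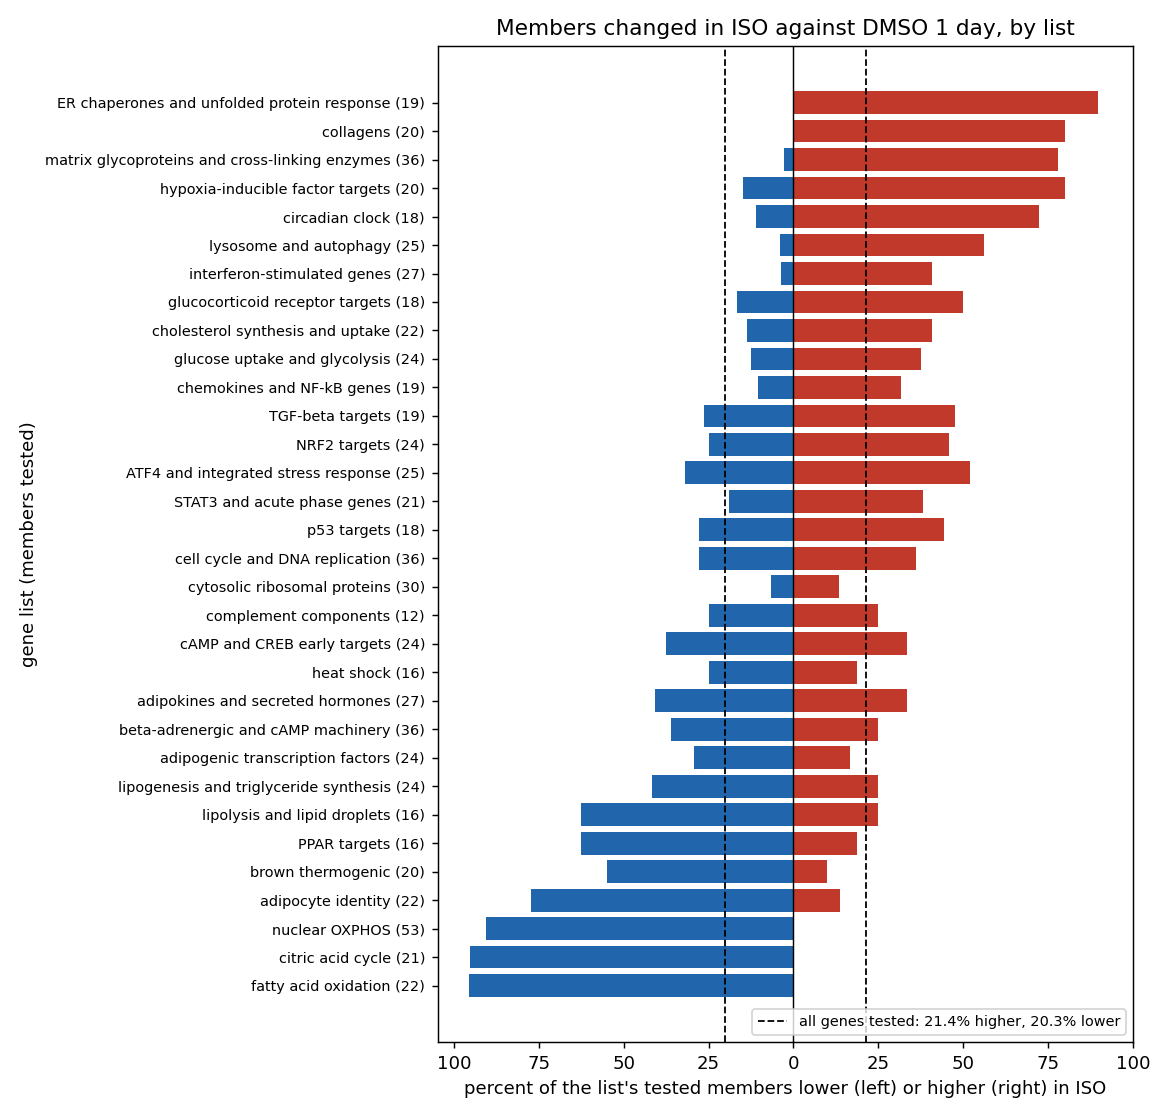
Percent of the tested members of each list that rose (red, right) or fell (blue, left) in ISO against DMSO 1 day, for lists with at least 10 tested members, the number tested in parentheses. Lists of cell type markers are not drawn. Dashed lines mark the 21.4% and 20.3% of all genes. The ER chaperones, collagens and hypoxia-inducible factor targets reach farthest to the right and fatty acid oxidation, the citric acid cycle and nuclear OXPHOS farthest to the left.

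**Figure D4:**
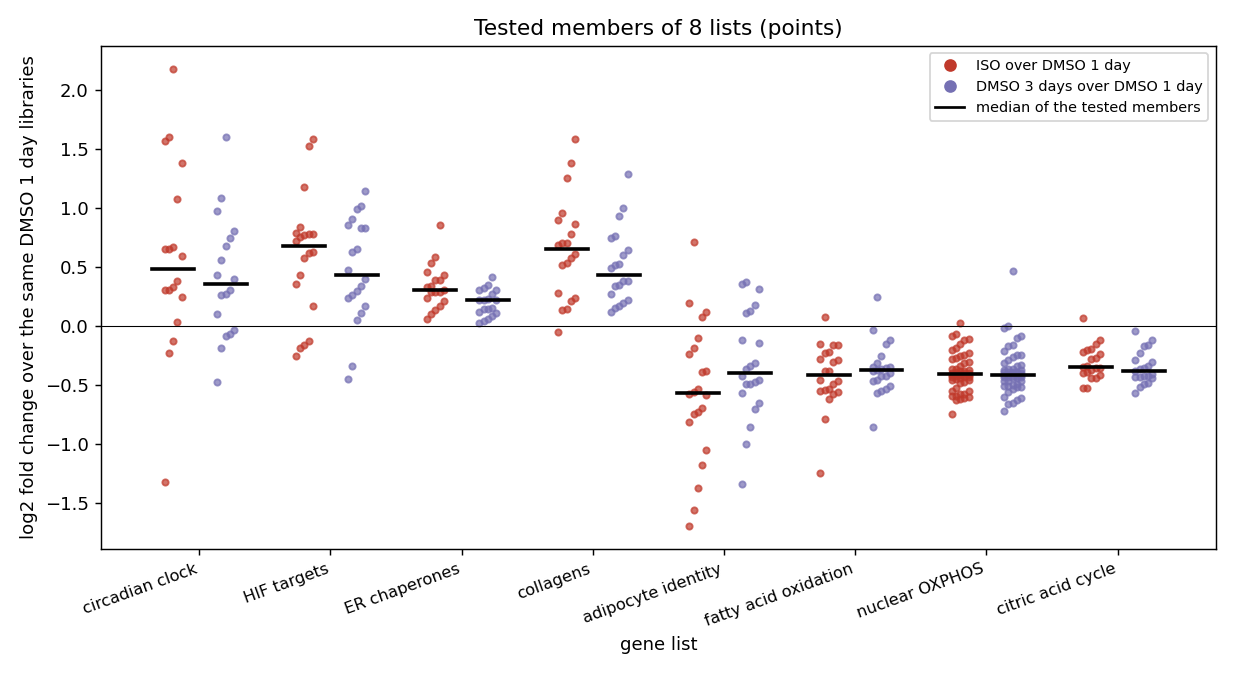
Log2 fold changes of the tested members of 8 lists (horizontal axis), 1 point a gene, for ISO over DMSO 1 day (red) and DMSO 3 days over DMSO 1 day (purple), with medians as black lines. Both share the DMSO 1 day libraries. For nuclear OXPHOS the medians are -0.41 and -0.41, for adipocyte identity -0.57 and -0.40, and for collagens 0.65 and 0.44.

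Because ISO and BML-260 share the 1-day solvent libraries, their difference was tested directly. ISO differed from BML-260 at 1 day at 6752 genes (44.4%), 3464 higher (22.8%) and 3288 lower (21.6%), of which 327 (2.15%) and 286 (1.88%) by at least 1 on the log2 scale. Ucp1 stood at 15.3 and 12.6 CPM in BML-260, below ISO by 0.83 (adjusted p = 1.67e-07), and Prg4 at 2.76 and 2.9, with ISO 4.3-fold higher (adjusted p = 3.53e-11). Adrb3 stood at 7.34 and 8.18 CPM in BML-260, and its difference of -0.21 from ISO (SE 0.14) did not pass the test (adjusted p = 0.22). Lep likewise stood at 0.999 and 1.43, with a difference of 0.31 (SE 0.34, adjusted p = 0.497). Per1 and Nr1d1 stood at 41.9 and 42.7 and 4.41 and 5.86 in BML-260, below ISO by 1.63 and 2.24. Of the 53 respiratory subunits 50 were lower in ISO than in BML-260 and none higher, and of the 36 matrix glycoproteins and cross-linking enzymes 33 were higher and none lower.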

How the data were processed

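RNA sequencing counts per gene were taken from the authors' deposited table of 24640 symbols and 10 libraries, 5 groups of 2. The submitters' processing notes name bcl2fastq 2.17.1.14, TopHat2 2.1.1, bedtools, DESeq2 and the builds mm9 and mm10 without saying which build the counts rest on. Strand handling is not stated in those notes. Exons of 57 of the 179 named genes overlap another gene's (GENCODE M21, GRCm38), and such reads may be shared. Names turned to dates (26 rows) stayed in the table.

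Counts were tested with edgeR 4.0.16 (R 4.3.3): TMM scaling, filterByExpr (at least 10 counts, total 15), 1 mean for each of 5 groups over all 10 libraries (5 residual degrees of freedom), the quasi-likelihood test and Benjamini-Hochberg adjustment over 15212 genes. Fold changes are those of the fit, and the SE is the change divided by the square root of F. The common biological coefficient of variation was 3.39%. In simulated data for this comparison (15086 genes) 91% of genes changed by 0.5 log2 and 100% of genes changed by 1 log2 were recovered, with 4.98% false calls. The changed genes there were few, had a mean of at least 10 CPM, and all genes shared the same spread. These shares therefore do not give the power or error rate of the real comparison. Counts of replicates differed by more than sampling noise (mean chi-square per gene from 1.92 to 3.09), and no pair was merged.

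Named genes are the 15 highest and 15 lowest changed genes with non-overlapping libraries and a mean of 10 CPM or more in one group, without predicted loci, up to 4 members of smallest p of each list described, all members of a list with at most 10 tested, and 12 genes of brown fat set by name. The members and lists were chosen with earlier results of these data known. Alternatives were other scalings, filters, DESeq2 1.42.0, fewer libraries and a replicate block. Promoters came from RefSeq (GRCm38.p6). A few genes under the rule are not reported here.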

Additional observations from a re-analysis of the deposited data

How the results depend on the processing

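Of the 4 counts of changed genes, 3 stayed within 1.5 times their value under every alternative run: that of ISO against DMSO at 1 day (6339) lay between 4603 and 5545 when 1 library was left out, at 4688 by DESeq2 and at 6419 with upper-quartile scaling. The count against DMSO at 3 days (3026) was 1993 by DESeq2 (1259 higher, 734 lower) and 1469 to 2542 when 1 library was left out. A lone library is then assumed to vary like the other groups. Among the 179 named genes, 10 changes turned sign in at least 1 alternative, Elovl3, Cd14 and Dusp22 among them, none of which had passed the test as reported. No called change did so in the alternatives that gave it a value, and the largest number of calls lost was 6, without DMSO 1 day replicate 2. Deviations of same-numbered libraries were little correlated (r = 0.00381 between ISO and DMSO at 1 day, and from -0.0344 to 0.0577 over all pairs of groups). Whether same-numbered libraries shared a culture or batch cannot be told from this, and the main fit did not pair them. With a replicate block the counts were 6498 and 3190. At 2 libraries a group, changes well under 0.5 log2 and genes of few counts are measured least precisely.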

Other observations

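Other lists moved in ISO against DMSO at 1 day without having been described above. Lysosome and autophagy genes rose in 14 of 25 tested and fell in 1 (all genes 21.4% and 20.3%), and 6 were higher and none lower than in DMSO at 3 days (10.6% and 9.24%). Sqstm1, the autophagy receptor p62, stood at 915 and 978 CPM in ISO, 533 and 539 in DMSO at 1 day and 779.8 and 827 at 3 days, a rise of 0.82 (SE 0.048). Npc1, the lysosomal cholesterol exporter, rose by 0.89, and Gabarapl1 and Map1lc3b, which build autophagosomes, by 0.83 and 0.60. Npc1 exceeded the later solvent by 0.21, and Gabarapl1 and Map1lc3b did not pass there (0.13 and -0.10). Among 24 NRF2 targets 11 rose and 6 fell against DMSO at 1 day, and 14 were higher and none lower against DMSO at 3 days (10.6% and 9.24% of all genes). Hmox1, heme oxygenase, stood at 882 and 1063 CPM in ISO, 525 and 535 in DMSO at 1 day and 621 and 644 at 3 days, and Ftl1, the ferritin light chain, at 62.9 and 64.7, 39.9 and 43.7 and 44.8 and 43.3. Gsta4, a glutathione transferase, fell by 0.84 and did not pass against the later solvent (-0.19). Of 22 cholesterol synthesis and uptake genes 9 rose and 3 fell, and 10 were higher and none lower than in DMSO at 3 days. Sqle, squalene epoxidase, stood at 205 and 241 CPM in ISO, 149 and 130.3 in DMSO at 1 day and 158 and 144 at 3 days. Of 27 interferon-stimulated genes 11 rose and 1 fell, and 8 were higher and 2 lower than in DMSO at 3 days. H2-K1, which presents antigen, rose by 0.57 and exceeded the later solvent by 0.26.

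Of 21 STAT3 and acute phase genes 8 rose (38.1%) and 4 fell (19%), against 21.4% and 20.3% of all genes. Against DMSO at 3 days 3 were higher (14.3%) and 5 lower (23.8%), where 10.6% and 9.24% of all genes were. Members moved apart: Hp, haptoglobin, fell by 1.19 (SE 0.066) to 537 and 473 CPM, and Lcn2, lipocalin, stood at 43.7 and 48.2 against 21.8 and 20.7. Both also differed from DMSO at 3 days, by -0.84 and 0.96. The gene listed as 8430408G22Rik, passed over by the naming rule and named after its values were seen, stood at 105 and 109 CPM in ISO and 23.1 and 24.3 in DMSO at 1 day (2.18, SE 0.11), with 187 and 232 in DMSO at 3 days. Of 6 tested beige adipocyte markers 2 rose (33.3%) and 2 fell (33.3%), with a median of 0.029. Tnfrsf9 stood at 4.19 and 5.11 CPM against 0.815 and 0.698 and, at 3 days, 2.34 and 2.99, a rise of 2.62 (SE 0.26), and Slc36a2 rose by 0.14, while Eva1b and P2rx5 changed by -0.43 and -0.27. The calls of Slc36a2, Eva1b and P2rx5 were each lost when 1 library was left out: Slc36a2 without DMSO 1 day replicate 1 (0.13) or ISO replicate 1 (0.12), Eva1b without DMSO 1 day replicate 2 (-0.34) or ISO replicate 2 (-0.27), and P2rx5 without ISO replicate 2 (-0.17).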
